A study of Mus musculus with 27 samples.

Results

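The glutathione S-transferases examined here were a set of 10 listed genes: Gsta2, Gsta3 and Gsta4 of the alpha class, Gstm1, Gstm2, Gstm3 and Gstm4 of the mu class, Gstp1 of the pi class, and Gstt1 and Gstt3 of the theta class. Each was represented by the single-gene probe set with the highest mean over all arrays. Such a probe set was found for 9 of the 10 genes, out of 18820 genes with one in the whole table. Gsta2 had none, because all probe sets that name it also name Gsta1 and other genes, and it is described apart.

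Livers came from 27 C57BL/6J pups at 2 weeks of age, and the RNA of each pup was hybridised to its own Affymetrix array (Mouse Gene 1.1 ST). Their dams ate a semi-synthetic low fat diet (LFD) with 10% of the energy as fat and 18.0 mg cholesterol per kg, or a Western-style diet (WSD) with 45% of the energy as fat and 196.5 mg cholesterol per kg. The dams stayed on their diet from 6 weeks before mating until the end, and all sires were on control diet. Whether the pups ate any of the dam's feed is not given. The groups were 6 males (m-LF) and 9 females (f-LF) of LFD dams, and 6 males (m-WS) and 6 females (f-WS) of WSD dams. Which pups were littermates is not given. The array names carry a number (37, 49 and 50 in pups of LFD dams, 39, 40 and 48 in pups of WSD dams) that the labels do not explain, and each number occurred within 1 maternal diet. The p-values below take the pups as independent, and may measure a spread that littermates share.

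Glutathione S-transferases join the tripeptide glutathione to electrophilic compounds, among them drugs, plant and food toxins and the aldehydes that arise when lipids are oxidised. The conjugates are more soluble, are exported from the hepatocyte into bile or blood, and are trimmed to mercapturic acids. The liver is among the organs richest in these enzymes. Several of their genes are known targets of the oxidative stress sensor NRF2 and of the xenobiotic receptors CAR, PXR and AHR. The question was whether maternal WSD changed the mRNA of these enzymes in the livers of sons and daughters.

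Across the samples, the arrays were of similar brightness, with medians between 5.34 and 5.43 on the log2 scale, and the number of arrays limits the precision. The 8 measured hepatocyte markers averaged between 12.42 and 12.62 in every pup, so the tissue matched its label. In males, 4 of 5 tested B cell precursor markers and 3 of 10 neutrophil and myeloid precursor markers rose with maternal WSD, whereas 0 of 8 Kupffer cell markers changed. Of 4 tested gut epithelial markers, 2 rose in males (Krt20 and Clec2h) and 3 in females (those and Fabp2), and 1 cholangiocyte marker (Sox9) rose and 2 stellate (Lrat and Reln) and 1 endothelial marker (Clec4g) fell in males. Beside these counts, 3.02% of all genes tested were called higher and 2.6% lower in males. In females the shares were 3.6% and 1.59%. The mean log2 signal of the B cell precursor list ran from 5.27 to 6.59 in m-LF and from 6.15 to 6.71 in m-WS. The gut epithelial list, of which 4 of 7 genes passed the intensity minimum, ran from 5.53 to 5.83 in m-LF, 5.88 to 6.01 in m-WS, 5.53 to 5.82 in f-LF and 5.88 to 6.09 in f-WS, so the diet groups did not overlap in either sex. Of single genes tested, 1.39% had no overlap in males and 0.435% in females, and a share for list means was not computed. The part of these markers in the results below was not tested. In bulk tissue, fewer cells of a type and less RNA per cell cannot be told apart. Xist, the RNA of the inactive X chromosome, stood at 9.30 in male m-LF6 and 7.92 in male m-WS1, against 3.25 to 4.50 in the other males and 11.67 to 11.88 in the females. The mean log2 signal of 3 Y-linked genes ran from 7.67 to 8.12 in m-LF and from 7.80 to 8.07 in m-WS. In f-LF it ran from 3.05 to 3.26 and in f-WS from 3.11 to 3.24. Every male, m-LF6 and m-WS1 included, thus lay far above the females in Y-linked signal. The origin of the raised Xist signal was not tested. Where a diet call of a member or listed gene turned without m-LF6 and m-WS1, both values are given.

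The mu class genes lie side by side on chromosome 3 of the mouse genome (build GRCm38.p6), with Gstm3 at 107963696 to 107969174, Gstm2 at 107981702 to 107986420, Gstm1 at 108012250 to 108017973 and Gstm4 at 108030571 to 108045179. The theta class genes Gstt3 (75774117 to 75781422) and Gstt1 (75783813 to 75798584) are neighbours on chromosome 10. Gsta4 lies on chromosome 9 at 78191966 to 78209349, Gsta3 on chromosome 1 at 21240565 to 21265575 and Gstp1 on chromosome 19 at 4035411 to 4037912. Promoter windows, the 250 bases before 1 RefSeq start per gene, were available for 9 of the 10 genes and not for Gsta4. The windows of Gsta2, Gsta3, Gstm4 and Gstt1 overlapped the gene, as the start taken lies inside its outer bounds. Where a gene has other starts, they were not searched. The 4 windows of the genes that varied most closely together from pup to pup, and that of Gstp1, which varied apart from them, are shown 5′ to 3′ on the strand of the gene, with motif matches in capitals.
Gstm2 (chr3:107986421-107986670, minus strand): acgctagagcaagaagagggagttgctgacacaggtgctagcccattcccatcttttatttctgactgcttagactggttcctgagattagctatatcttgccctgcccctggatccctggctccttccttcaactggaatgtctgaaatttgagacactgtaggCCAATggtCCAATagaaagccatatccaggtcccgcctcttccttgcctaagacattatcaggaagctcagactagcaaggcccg
Gstm3 (chr3:107969175-107969424, minus strand): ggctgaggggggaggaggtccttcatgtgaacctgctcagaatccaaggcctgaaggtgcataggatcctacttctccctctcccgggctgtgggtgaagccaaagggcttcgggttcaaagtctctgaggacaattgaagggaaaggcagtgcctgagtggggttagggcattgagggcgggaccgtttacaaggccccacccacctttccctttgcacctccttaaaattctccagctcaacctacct
Gstt3 (chr10:75781423-75781672, minus strand): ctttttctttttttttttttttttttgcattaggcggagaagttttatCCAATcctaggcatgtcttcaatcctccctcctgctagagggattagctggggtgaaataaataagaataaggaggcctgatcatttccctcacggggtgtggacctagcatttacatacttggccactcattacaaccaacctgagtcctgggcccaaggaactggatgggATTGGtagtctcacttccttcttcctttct
Gsta3 (chr1:21240335-21240584, plus strand): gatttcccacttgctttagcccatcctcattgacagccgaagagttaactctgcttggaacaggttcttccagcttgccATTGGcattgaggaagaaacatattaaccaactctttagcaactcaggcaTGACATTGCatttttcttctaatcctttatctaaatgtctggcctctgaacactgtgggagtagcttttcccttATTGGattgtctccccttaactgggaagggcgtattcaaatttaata
Gstp1 (chr19:4037913-4038162, minus strand): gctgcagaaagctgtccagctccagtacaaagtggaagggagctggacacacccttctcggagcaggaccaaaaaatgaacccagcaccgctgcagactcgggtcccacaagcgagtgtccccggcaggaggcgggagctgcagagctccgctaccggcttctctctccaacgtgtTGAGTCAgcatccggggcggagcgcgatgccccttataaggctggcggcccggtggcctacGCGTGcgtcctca

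The motifs searched on both strands were the core of the antioxidant response element bound by NRF2 (TGACNNNGC), the core of the xenobiotic response element bound by AHR (GCGTG), the AP-1 element (TGAGTCA) and the CCAAT box. The reverse of an AP-1 element followed by GC would match the antioxidant core too. Among 32851 windows of the same length, 10.2% held the antioxidant core, 28.2% the xenobiotic core, 4.46% the AP-1 element and 33.8% a CCAAT box. Gsta3 was the only gene of the 9 with the antioxidant core, 121 bases before the start, beside a pair of reversed CCAAT boxes. Gstm2 had a pair of CCAAT boxes, 85 and 77 bases before the start, and Gstt3 had 1 on each strand. Gstm3 had none of the 4 motifs in its window. Gstp1 had the only AP-1 element, 74 bases before the start, and a xenobiotic core at 13 bases. The xenobiotic core was also found in Gsta2 and Gstm1, and a CCAAT box in Gsta2, Gstm1, Gstm4 and Gstt1. These matches describe letters in a window and no binding was measured.

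None of the 9 measured glutathione S-transferases passed the test for a change by maternal WSD in males, and none did so in females. The words rose and fell are kept for genes with an unadjusted limma p of at most 0.01, the threshold in the methods of the study, and the adjusted p printed is that of Benjamini and Hochberg over all genes tested. The differences were small, between -0.26 for Gstm2 and 0.09 for Gstp1 in males, and between -0.20 for Gstt3 and 0.09 for Gsta3 in females, as 2log ratios of WSD over LFD. In males 0 of 9 passed, against 5.62% of the 10810 genes tested (3.02% higher and 2.6% lower with WSD). In females 0 of 9 passed, against 5.19% (3.6% higher and 1.59% lower). At an unadjusted p of at most 0.05, 1 of 9 passed in males (Gstm4) and 1 of 9 in females (Gsta4), against 14.3% and 14.5% of the genes tested. The lowest adjusted p of a member was 0.227 in males and 0.321 in females, whereas 0.731% of genes in males and 0.305% in females had an adjusted p under 0.05. Of the members, 8 passed both filters of the study, and Gsta3, whose spread over the arrays was below the minimum, was taken from a fit without that filter. The median change of the 9 was -0.06 in males and -0.04 in females, beside 0.01 over all genes tested in either sex. The 95% intervals of the single members lay within -0.53 to 0.32 in males and -0.53 to 0.22 in females, and no joint interval was computed. No member had diet groups that did not overlap in either sex, whereas 1.39% of genes did so in males and 0.435% in females.

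**Figure D1:**
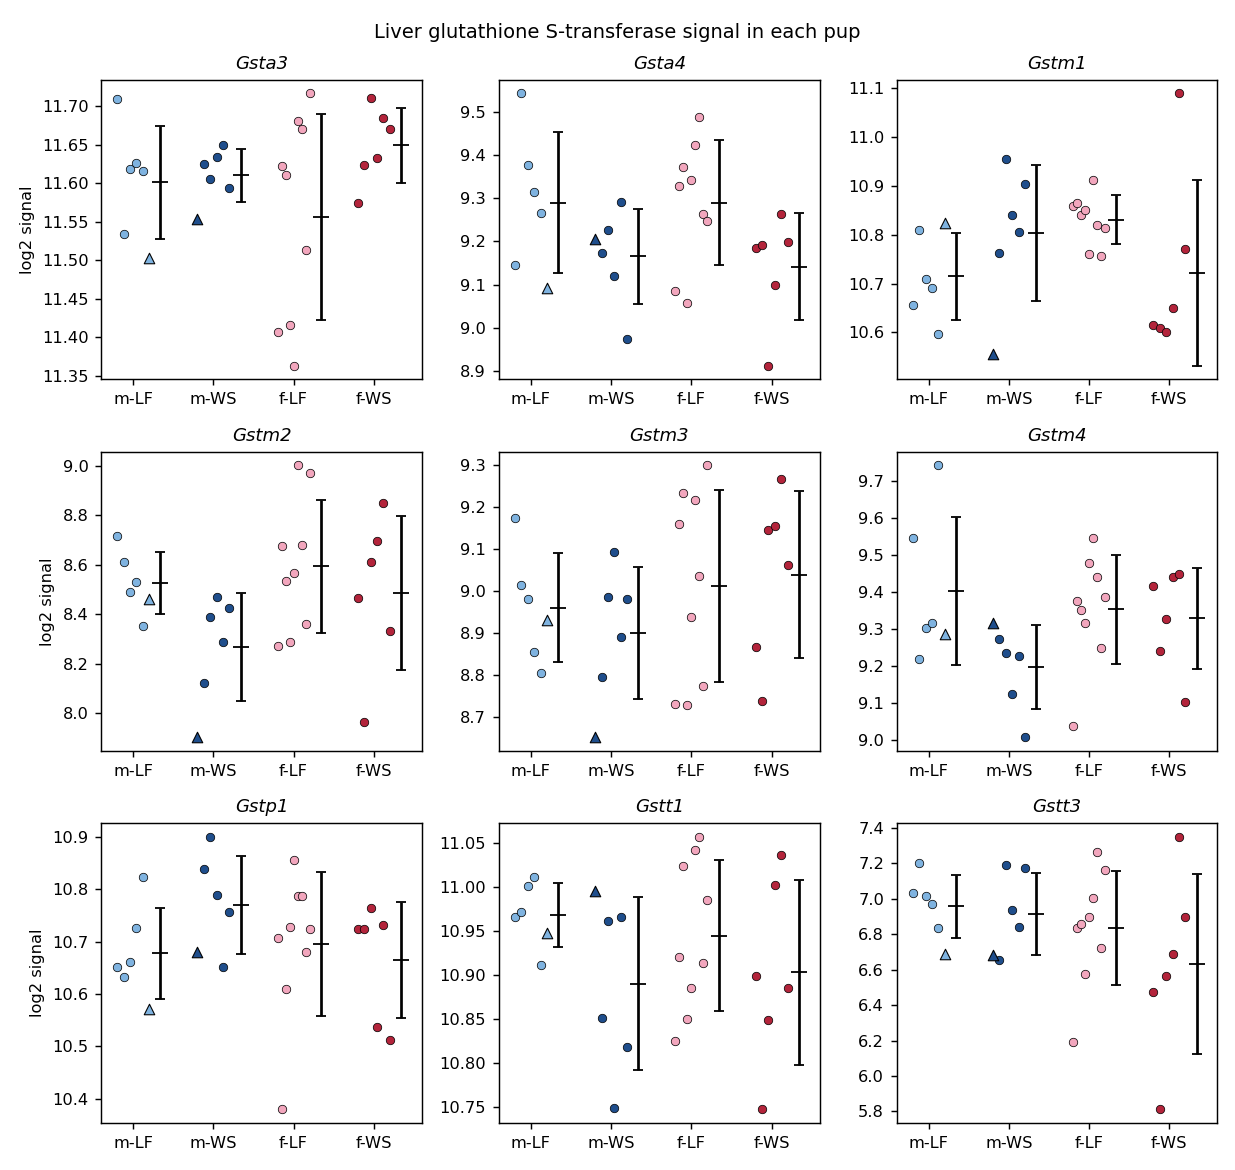
Log2 signal (vertical axis) of the 9 glutathione S-transferases with a single-gene probe set, 1 panel per gene with its own scale, in each pup of the 4 groups (points, with triangles for m-LF6 and m-WS1), with group mean and SD as bars. The diet groups overlap in every panel, and Gstm1 in f-WS5 stands at 11.09, above the other f-WS pups at 10.60 to 10.77.

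Among the alpha class, Gsta4, which prefers the lipid peroxidation product 4-hydroxynonenal, was the member with the lowest p in females. Its log2 signal ran from 9.06 over a median of 9.33 to 9.49 in f-LF and from 8.91 over 9.19 to 9.26 in f-WS. All f-WS pups lay below the median of f-LF, yet the groups overlapped between 9.06 and 9.26. The change was -0.15 (95% interval -0.29 to -0.01, adjusted p = 0.321), and an exact permutation test over the pups gave p = 0.0593 (2-sided, n = 9 and 6). In males Gsta4 ran from 9.09 over 9.29 to 9.54 in m-LF and from 8.97 over 9.19 to 9.29 in m-WS, a change of -0.12 (-0.28 to 0.03, adjusted p = 0.489). The highest m-WS pup thus reached only the median of m-LF. Without m-LF6 and m-WS1 the male change was -0.17 (adjusted p = 0.308). The sexes differed in this change by 0.02 (-0.19 to 0.23), the smallest of the 9 differences between the sexes in diet change, and neither change passed the threshold.

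Gsta3, an alpha class enzyme that inactivates aflatoxin epoxide in mice, was the only member whose spread over the arrays fell below the filter. It stood between 11.50 and 11.71 in m-LF, 11.55 and 11.65 in m-WS, 11.36 and 11.72 in f-LF, and 11.57 and 11.71 in f-WS. The f-WS pups lay within the f-LF range, with none below 11.57. Its change was 0.01 (-0.09 to 0.11, adjusted p = 0.968) in males and 0.09 (-0.0014 to 0.19, adjusted p = 0.353) in females. The SD was 0.13 in f-LF and 0.05 in f-WS.

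The probe sets that name Gsta2 were near the intensity minimum of the study. Their means were between 4.50 and 5.11 on the log2 scale, and 4 of them are listed with Gsta1 and Gsta2 together. Their changes were 0.16 to 0.25 in males (lowest adjusted p = 0.271) and 0.03 to 0.10 in females. No level can be given to Gsta2 itself.

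In the mu class, Gstm4 was the member with the lowest p in males. Its log2 signal ran from 9.22 over a median of 9.31 to 9.74 in m-LF and from 9.01 over 9.23 to 9.32 in m-WS. The groups overlapped between 9.22 and 9.32, and m-LF5 at 9.74 and m-LF1 at 9.55 lay above the rest. The change was -0.20 (-0.37 to -0.03), that is 0.868-fold, with adjusted p = 0.227, and an exact permutation test gave p = 0.0476 (2-sided, n = 6 and 6). Without m-LF2, whose value was the lowest of m-LF at 9.22, it was -0.24 and passed the threshold (adjusted p = 0.208). Leaving out that pup makes the change more negative by construction, and the share of all genes that passed then is not given here. Without m-LF6 and m-WS1 the change was -0.25 (adjusted p = 0.153). It was -0.14 without m-LF5 and -0.11 without the arrays of number 48, and passed in neither case. In females Gstm4 ran from 9.04 over 9.38 to 9.55 in f-LF and from 9.10 over 9.37 to 9.45 in f-WS, a change of -0.02 (-0.18 to 0.13, adjusted p = 0.924). The difference between the sexes was -0.18 (-0.41 to 0.05, adjusted p = 0.614), which did not pass the test.

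Gstm2 had the lowest male 2log ratio of the members. In m-LF it ran from 8.35 over a median of 8.51 to 8.72 and in m-WS from 7.90 over 8.34 to 8.47. The low end of m-WS was m-WS1 at 7.90 and m-WS2 at 8.12, the only m-WS pups of array number 40, whereas the 4 pups of number 48 averaged 8.39. The change was -0.26 (-0.53 to 0.01, adjusted p = 0.363), and the exact permutation test gave p = 0.0238 (n = 6 and 6). Without the arrays of number 48, which leaves the low pair of number 40 in m-WS, the change was -0.52 and passed the threshold (adjusted p = 0.316). The share of all genes that passed in that fit is not given here. Without m-LF6 and m-WS1 the change was -0.20 (adjusted p = 0.532). In females Gstm2 ran from 8.27 over 8.57 to 9.0 in f-LF and from 7.97 over 8.54 to 8.85 in f-WS. The change of -0.11 (-0.35 to 0.13, adjusted p = 0.738) rested on f-WS2 of number 39, the lowest pup at 7.97, since it was 0.03 without the arrays of number 39.

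Gstm1, a major hepatic mu class enzyme, was the member whose diet ratio differed most between the sexes. In males it ran from 10.60 over a median of 10.70 to 10.82 in m-LF and from 10.56 over 10.82 to 10.96 in m-WS, a change of 0.09 (-0.05 to 0.23, adjusted p = 0.612), and of 0.16 without m-LF6 and m-WS1 (adjusted p = 0.242). In f-LF it ran from 10.76 over 10.84 to 10.91, a narrow range. In f-WS the values were 10.61, 10.61, 10.60, 10.65, 11.09 and 10.77. Thus 4 of the 6 f-WS pups lay below every f-LF pup, 1 lay within their range, and f-WS5 lay above all of them. The female change was -0.11 (-0.24 to 0.02, adjusted p = 0.435), and the exact permutation test gave p = 0.122 (n = 9 and 6). Without f-WS5, the pup furthest against this change, it was -0.18 and passed the threshold (adjusted p = 0.107). Leaving out that pup makes the change more negative by construction, and the share of all genes that passed then is not given here.

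The array numbers moved with Gstm1 in the pups of WSD dams. Both f-WS pups of number 48 averaged 10.93, while those of number 39 averaged 10.61 and those of number 40 averaged 10.63. In m-WS the pups of number 48 averaged 10.88 and those of number 40 averaged 10.66. Without number 48 the female change of Gstm1 was -0.21 (adjusted p = 0.0692), and that of Gstt3 -0.45 (adjusted p = 0.243), and both passed in that subset. The share of all genes that passed in that subset is not given here, so these calls have no background beside them. What the numbers stand for was not tested, and each lies within 1 diet. The male change minus the female change of Gstm1 was 0.20 (0.01 to 0.39, adjusted p = 0.489). None of the 9 members passed in this comparison, against 2.5% of genes, and at an unadjusted p of at most 0.05 Gstm1 alone did, against 9.81%. Without m-LF6 and m-WS1, however, Gstm1 passed, with a difference of 0.27 (adjusted p = 0.261), where 3.37% of genes did. It also passed without m-WS1 alone, at 0.25 (adjusted p = 0.421), and without f-WS5, at 0.27 (adjusted p = 0.149). For these fits without a single pup, the share of genes that passed is not given here.

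Gstm3 did not pass the test in either sex, with a change of -0.06 (-0.27 to 0.15, adjusted p = 0.854) in males and 0.03 (-0.16 to 0.22, adjusted p = 0.934) in females. It stood between 8.81 and 9.17 in m-LF, 8.65 and 9.09 in m-WS, 8.73 and 9.30 in f-LF, and 8.74 and 9.27 in f-WS. The identity of its probe set is uncertain. Probe set identifiers of this array run along the genome, and for 94.7% of 21202 single-gene probe sets the 10 neighbouring identifiers lie mainly on the chromosome of the gene. For the probe set taken by the rule all 10 neighbours lie on chromosome 10, while Gstm3 lies on chromosome 3. A second Gstm3 probe set, whose neighbours lie on chromosome 3 in 9 of 10 cases, ranged from 7.03 to 8.64 and was at -0.12 in males (adjusted p = 0.884) and 0.16 in females (adjusted p = 0.778). Over the pups, the deviations of both probe sets from their group means correlated at r = 0.90. The mu class genes are similar in sequence, and how well the probes tell them apart was not tested.

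Gstp1, the pi class enzyme, ran from 10.57 over a median of 10.66 to 10.82 in m-LF and from 10.65 over 10.77 to 10.90 in m-WS. The change was 0.09 (-0.04 to 0.22, adjusted p = 0.563), and -0.03 (-0.15 to 0.09, adjusted p = 0.868) in females, where the ranges were 10.38 to 10.86 in f-LF and 10.51 to 10.76 in f-WS. The adjacent Gstp2 shares a pair of probe sets with Gstp1, which were at 0.03 and 0.02 in males and at -0.01 and -0.02 in females.

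The theta class gene Gstt1 ran from 10.91 to 11.01 in m-LF, 10.75 to 11.00 in m-WS, 10.82 to 11.06 in f-LF and 10.75 to 11.04 in f-WS. Its change was -0.08 (-0.18 to 0.03, adjusted p = 0.540) in males and -0.04 (-0.14 to 0.06, adjusted p = 0.746) in females. Its neighbour Gstt3 was the most variable member. It ran from 6.19 over a median of 6.86 to 7.27 in f-LF and from 5.81 over 6.63 to 7.35 in f-WS, with an SD of 0.51 in f-WS. The lowest and the highest pup of all 27 were thus both daughters of WSD dams, f-WS2 at 5.81 and f-WS5 at 7.35. The female change was -0.20 (-0.53 to 0.12, adjusted p = 0.615), and 0.04 without number 39. In males the ranges were 6.69 to 7.20 in m-LF and 6.66 to 7.19 in m-WS, with a change of -0.04 (-0.40 to 0.32, adjusted p = 0.952).

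**Figure D2:**
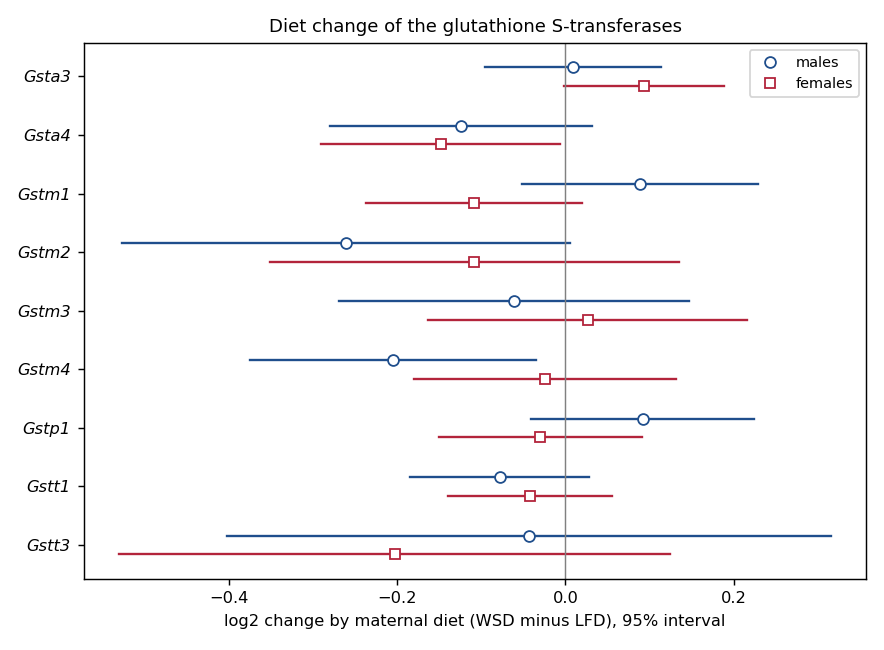
Log2 change by maternal WSD (WSD minus LFD) of each of the 9 members in males and in females, as estimate with 95% confidence interval from the limma fit. All but 1 interval in each sex includes 0, the exceptions being Gstm4 in males (-0.37 to -0.03) and Gsta4 in females (-0.29 to -0.01), and neither passed the threshold of 0.01.

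Males and females were also compared on each maternal diet. On LFD 0 of 9 members passed, against 1.37% of genes, and on WSD 0 of 9, against 3.35%. The lowest p on LFD was that of Gstm1, with males minus females at -0.12 (-0.24 to 0.01, adjusted p = 0.763). The exact permutation test of the same values, which uses these groups alone, gave p = 0.00619 (2-sided, n = 6 and 9). On WSD the lowest p was that of Gstm2 at -0.22 (-0.49 to 0.05, adjusted p = 0.567), and Gstt3 was at 0.28 (-0.08 to 0.64, adjusted p = 0.588). Within the arrays of name prefix G074, Gstm1 at 0.27 (adjusted p = 0.268) and Gstt3 at 0.82 (adjusted p = 0.306) were higher in males on WSD. These arrays hold part of each group, on WSD m-WS2, m-WS3 and m-WS6 against f-WS2 and f-WS3. Array number 48 occurred among these males only, so the comparison mixes sex with array number.

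From pup to pup, within groups, several members varied together. The correlations below are of deviations from the 4 group means over 27 pups, and are descriptive, since all genes of a pup share its array, RNA and normalization. Gstm2 correlated with Gstm3 at r = 0.89 (0.94 in the 12 males and 0.87 in the 15 females) and with Gstt3 at r = 0.78 (0.74 and 0.80). The identity of the Gstm3 probe set is uncertain, and whether the Gstm2 and Gstm3 probe sets measure separate transcripts was not tested. Gstm3 correlated with Gstt3 at r = 0.73 (0.64 and 0.76) and with Gsta3 at r = 0.68 (0.39 in males and 0.77 in females). Gsta3 stood at 0.38 in males and 0.64 in females with Gstm2, and at 0.16 and 0.54 with Gstt3. With the second Gstm3 probe set in place of the first, the values were 0.80 for Gstm2, 0.67 for Gstt3 and 0.71 for Gsta3. When the means of array number and group were removed, they were 0.88 for Gstm2 and Gstm3, 0.76 for Gstm2 and Gstt3, 0.71 for Gstm3 and Gstt3 and 0.72 for Gsta3 and Gstm3. For comparison, 3.65% of 13278 other genes correlated with Gstm2 above 0.5, 5.09% with Gstm3 and 3.74% with Gstt3. By deviation in Gstm2, the pups at the ends were f-LF6 (Gstm2 9.0, Gstt3 7.00), f-LF9 (8.97 and 7.16) and f-WS2 (7.97 and 5.81). By deviation in Gstt3, the ends were f-WS5 (Gstm2 8.85, Gstt3 7.35) and again f-WS2.

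**Figure D3:**
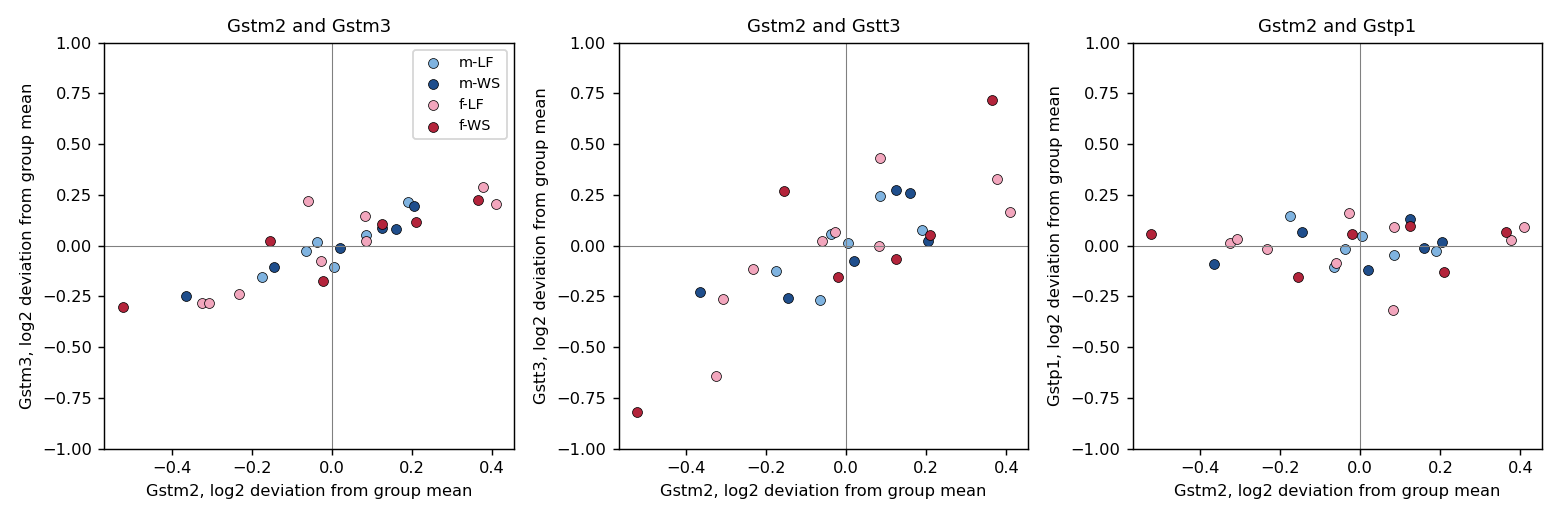
Deviation of Gstm2 from its group mean (horizontal axis, log2) against that of Gstm3, Gstt3 and Gstp1 (vertical axes, log2, 1 panel each), 1 point per pup, coloured by group. Pups above the group mean in Gstm2 were mostly above it in Gstm3 (r = 0.89) and Gstt3 (r = 0.78), and the value for Gstp1 was r = 0.055. How well the probes tell Gstm2 and Gstm3 apart was not tested.

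Other pairs differed between the sexes in value, which was not tested. Gstt1 and Gstt3, which are neighbours on the chromosome, correlated at 0.84 in females and -0.04 in males. Gstm2 and Gstt1 correlated at 0.81 in females and -0.40 in males, and Gstm2 and Gstm4 at 0.71 and -0.46. Gstm1 and Gstm4 stood at 0.13 in females and -0.66 in males. Gstp1 varied apart from the other members, with r between -0.16 and 0.32, and 0.603% of all genes correlated with it above 0.5.

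**Figure D4:**
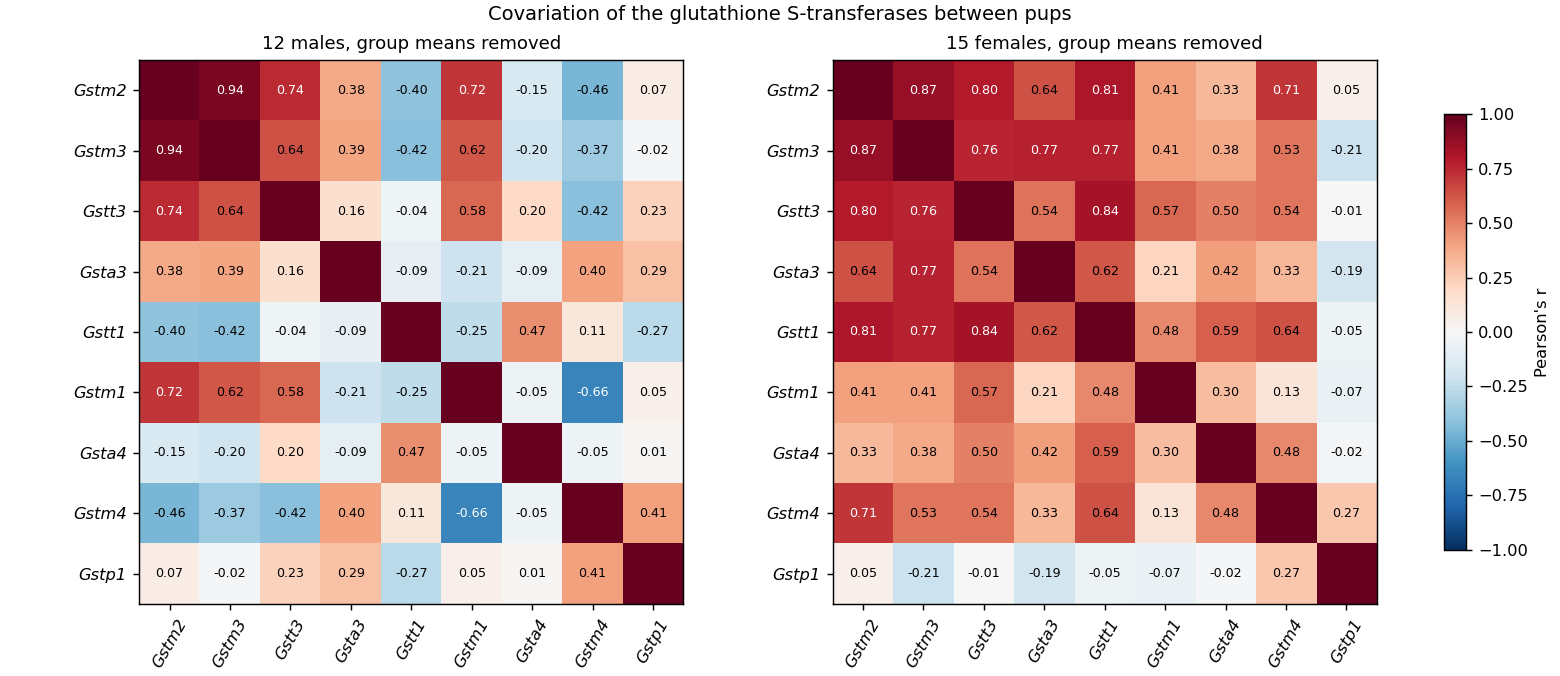
Pearson correlation of each pair of members over 12 males (left) and 15 females (right), computed on deviations from the group means and shown on a colour scale with the value in each cell. Gstm2 and Gstm3 stand at 0.94 and 0.87, Gstm2 and Gstt3 at 0.74 and 0.80, and Gstt1 with Gstt3 at -0.04 and 0.84.

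The genes whose pattern over the 27 pups was most like that of a member were named for the member of lowest p in each diet comparison. For Gstm4 they were Tcn2 (r = 0.85), which carries vitamin B12, Babam2 (0.84), Trappc1 (0.81), Erg28 (0.81) and Tmem176b (0.79). For Gsta4 they were Pik3r2 (0.75), Txndc15 (0.73), Ang4 (0.72), Snrk (0.70) and Smcr8 (0.70). For Gstm1 they were Fmc1 (0.77), Tmem38b (0.76), Epn1 (0.75), the GABA transaminase Abat (0.74) and Bckdha (0.73), a subunit of the branched-chain ketoacid dehydrogenase. These are the highest of 13278 values each.

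The other genes of the pathway were described by lists. Beside the counts of these lists, 3.02% of all genes tested rose and 2.6% fell in males. In females 3.6% rose and 1.59% fell. Of the 10 other glutathione transferases tested, Gsto1 rose in males and none changed in females. Gsto1, an omega class enzyme that reduces dehydroascorbate and methylated arsenic, ran from 8.88 over 9.15 to 9.28 in m-LF and from 9.25 over 9.40 to 9.59 in m-WS. Only m-LF2 at 9.25 and m-LF4 at 9.28 reached the lowest m-WS pups. The change was 0.28 (0.09 to 0.46, adjusted p = 0.127), and it was 0.13 and no longer past the threshold without the arrays of number 48. With the array number as a random block it was 0.25 and did not pass either (adjusted p = 0.263). In females it was -0.08 (-0.25 to 0.08, adjusted p = 0.696), with f-WS5 the highest daughter at 9.53, and the male change exceeded the female one by 0.36 (0.11 to 0.61, adjusted p = 0.377). Gstm7, next to the listed mu class genes and named after its values were seen, was at -0.15 in females (adjusted p = 0.199). The median change of this list was 0.11 in males and 0.03 in females.

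Of 9 genes of glutathione synthesis and recycling tested, 2 rose in males and none changed in females. They were Gclc, the catalytic subunit of the rate-limiting glutamate-cysteine ligase, at 0.14 (0.04 to 0.23, adjusted p = 0.142), and Oplah, the 5-oxoprolinase that returns glutamate, at 0.30 (0.10 to 0.50, adjusted p = 0.122). Oplah was at 0.16 and no longer past the threshold when its probe sets were averaged. Gclm, the modifier subunit, fell outside the filter on spread and was at 0.12 in females, where it passed the threshold (adjusted p = 0.159), and 0.07 in males (adjusted p = 0.509) in the fit without it. The synthetase Gss was at -0.03 in males and 0.09 in females, and the reductase Gsr at -0.10 and 0.08.

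Of 10 peroxidases, glutaredoxins and other glutathione enzymes tested, 4 rose in females and 1 fell in males. In females these were Esd, which completes formaldehyde detoxification through glutathione, at 0.23 (0.11 to 0.35, adjusted p = 0.0849), Hagh, the glyoxalase that frees glutathione from lactoylglutathione, at 0.21 (0.09 to 0.33, adjusted p = 0.103), and the iron-sulphur glutaredoxins Glrx3 at 0.51 (0.22 to 0.80, adjusted p = 0.10) and Glrx5 at 0.19 (0.08 to 0.30, adjusted p = 0.107). Their adjusted p lay between 0.0849 and 0.107. Glrx3 ran from 5.73 over 6.09 to 6.70 in f-LF and from 6.15 over 6.64 to 7.14 in f-WS, so the groups overlapped. Hagh was at 0.14 in males (adjusted p = 0.318) and passed there without m-LF6 and m-WS1 (0.20, adjusted p = 0.130), as did the lipid hydroperoxide reductase Gpx4 (0.15, adjusted p = 0.196, and 0.20, adjusted p = 0.0944, without them). In males the cytosolic glutaredoxin Glrx fell by 0.25 on the log2 scale (adjusted p = 0.109), and it was at -0.19 in females (adjusted p = 0.219). Without m-LF6 and m-WS1, Glrx was at -0.33 in males (adjusted p = 0.0177). In females, where no pup was left out, Glrx stayed at -0.19 but passed (adjusted p = 0.173), since the 4 groups share 1 estimate of the spread.

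Of 16 genes of the mercapturate steps and conjugate export tested, Kyat1, a cysteine-conjugate beta-lyase, rose in both sexes and no other changed. Its change was 0.20 (0.07 to 0.33, adjusted p = 0.121) in males and 0.23 (0.11 to 0.35, adjusted p = 0.0766) in females. Nat8f1 of the same list was at 0.33 in males (adjusted p = 0.220) and passed at 0.43 without m-LF6 and m-WS1 (adjusted p = 0.115). Of 20 tested genes of the NRF2 pathway, Gclc, already counted, and Ugdh, which makes UDP-glucuronate, rose in males, and none changed in females. Ugdh was at 0.26 (0.11 to 0.41, adjusted p = 0.0745). NRF2 itself (Nfe2l2) was at 0.10 in males and -0.04 in females, its inhibitor Keap1 at 0.07 and 0.02, and the quinone reductase Nqo1, a much used NRF2 readout, at 0.11 and 0.16. None of these passed in either sex.

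**Figure D5:**
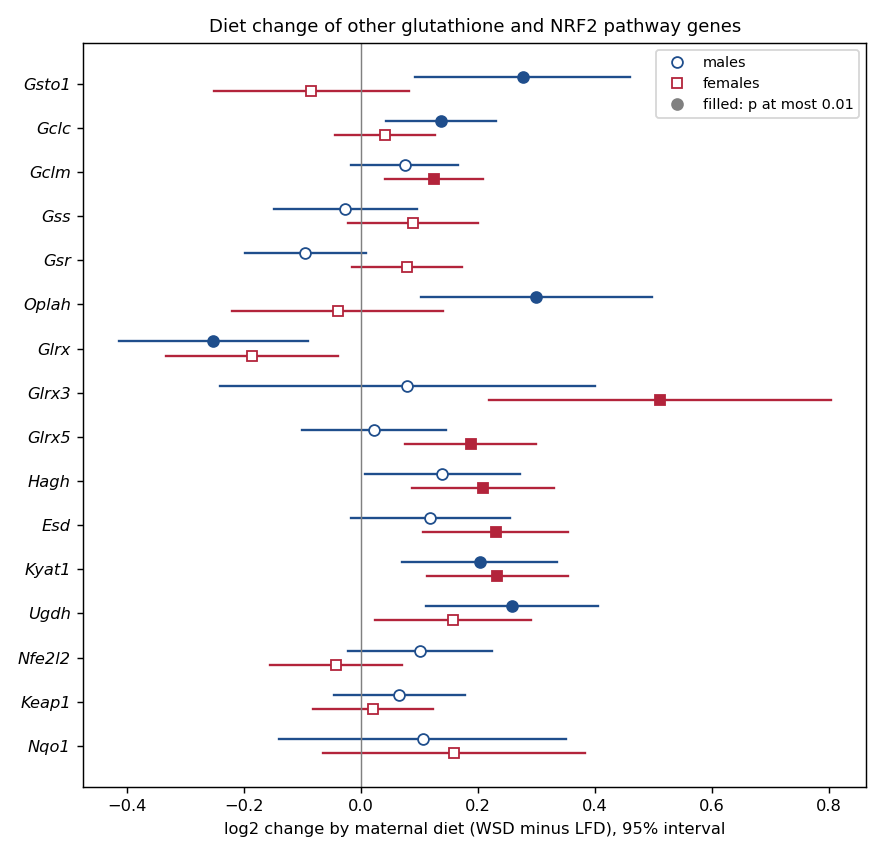
Log2 change by maternal WSD (WSD minus LFD, horizontal axis) of named genes of the glutathione and NRF2 lists in males (circles) and females (squares), with 95% confidence interval from the limma fit and filled symbols for genes past the threshold. Filled symbols reach from -0.25 for Glrx in males to 0.51 for Glrx3 in females, and Kyat1 is the gene with both symbols filled.

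Of 16 genes of the CAR, PXR and AHR list tested, 2 rose and 4 fell in males, and 1 fell in females. Cyp2b10, the cytochrome P450 that serves as the readout of CAR activity, ran from 5.77 over 6.08 to 7.93 in m-LF and from 7.71 over 8.18 to 8.53 in m-WS. Only m-LF6 at 7.93, a pup with a raised Xist signal, reached the m-WS range. The change was 1.78 (1.14 to 2.42), that is 3.44-fold, with adjusted p = 0.00700, and it was 2.08 without m-LF6 and m-WS1. In females it was 0.54 (-0.05 to 1.12, adjusted p = 0.390), and 0.03 without the arrays of number 48, since f-WS5 at 9.0 and f-WS6 at 8.12 were the highest daughters. The diet change exceeded that of females by 1.25 in males (0.38 to 2.11, adjusted p = 0.386).

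Of the other Cyp genes of that list, 4 fell in males and 1 fell in females. In males Cyp2c50 was at -1.52 (adjusted p = 0.00448), Cyp2c54 at -1.54 (adjusted p = 0.0466), Cyp2b13 at -0.61 (adjusted p = 0.0850) and Cyp2c37 at -0.41 (adjusted p = 0.107). Cyp3a13, outside the rule for named genes, rose by 0.24 on the log2 scale in males (adjusted p = 0.168). It no longer passed with the array number as a random block (0.22, adjusted p = 0.337) or without m-LF6 and m-WS1 (adjusted p = 0.179). In females Cyp2c29 fell by 0.28 on the log2 scale (adjusted p = 0.168). PXR (Nr1i2) was at -0.05 in males and 0.01 in females, and CAR (Nr1i3) had no single-gene probe set. Over the 6 lists, 8 calls in males were rises and 5 were falls, and in females 5 were rises and 1 was a fall, with Gclc counted in a pair of lists. Among the named genes, Cyp2b10 and Cyp2c50 in males and Glrx5 in females kept their calls in every fit without 1 pup or 1 array number, and each of the others lost its call in at least 1. Ugdh and Oplah in males were at 0.09 and 0.11 without number 48, Gclc in males at 0.09 without number 37, Cyp2c29 in females at -0.15 without number 40, and Gclm in females at 0.065 without number 49.

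The members were set beside these genes pup by pup. Deviations of Gstm1 from the group means correlated with those of Cyp2b10 at r = 0.56 over 27 pups, and Gstt3 at 0.34, whereas the other members lay between -0.15 and 0.28. Of all genes, 1.97% correlated with Gstm1 above 0.5. The value of 0.56 may lean on f-WS5 and m-LF6. Gstm1 in f-WS5 and Cyp2b10 in m-LF6 stood far from the rest of their groups, and r without these pups was not computed. The pup f-WS5 was the highest of all 27 in Cyp2b10 (9.0), Gstm1 (11.09) and Gstt3 (7.35). The pup m-LF6, with the highest Cyp2b10 of m-LF, also had the highest Gstm1 of that group (10.82) and the lowest Gstt3 (6.69). With Nr1i2, Gsta4 correlated at 0.52 and Gstt1 at 0.46. With Nqo1 the 9 members lay between 0.03 and 0.38, with Nfe2l2 between -0.29 and 0.23, and with Gclc between -0.45 (Gstt3) and 0.39 (Gstp1).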

How the data were processed

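Liver RNA of 27 pups was hybridised to 1 array each. Per the labels and the study's methods, the authors made the values by RMA (version not given in the sources used here) over all arrays, and the deposited table holds log2 intensities of 35556 manufacturer-defined probe sets. They are not the Entrez-based probe sets of the methods. Genes came from the platform annotation, with 21218 single-gene probe sets, and each of 18820 genes took its probe set of highest mean. The study's filters (an intensity of 20 or more in 4 or more arrays, and an IQR of at least 0.1) left 10810 genes, and 13279 passed the first alone.

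All genes entered 1 linear model of the 4 groups in limma 3.58.1 under R 4.3.3, with eBayes and an intensity trend, in place of the IBMT test of the methods. Changes were called at an unadjusted p of at most 0.01, and p was adjusted by Benjamini and Hochberg over all genes tested. The fit was tested on simulated data. Exact permutation tests were 2-sided, over 924 (males) or 5005 (females) assignments, with smallest possible p of 0.00216 and 0.0002. A difference of log2 means is called a change or 2log ratio. Figures used Python 3.11.15 and matplotlib 3.10.9.

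The members and lists were chosen with earlier results of these data known. Named were all members, up to 5 genes per pathway list and sex past that threshold, a few fixed pathway genes, and the 5 nearest genes of 3 members. Alternatives were other filters, no intensity trend, repeated normalizations, array weights, blocks for the number, the prefix or the replicate number in the labels, arrays of 1 prefix, probe set means, exact tests, and leaving out pups and numbers. Separate fits of each probe set, and correlations with prefix or number removed, were added after seeing the data. Protein sequences were not used here, so protein identity was not computed.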

Additional observations from a re-analysis of the deposited data

Results flagged for a closer look

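Among 36 groups of values of the 9 members, 1 held a pup far from the rest by Dixon's criterion: Gstm1 in f-WS5 was 11.09, against 10.60 to 10.77 in the other f-WS pups. Over all 32 named genes, 8 of 128 groups did so, and chance gives about 1 in 20. The other outlying values were Glrx in m-LF6 (8.20, others 8.56 to 8.73), Glrx in m-WS6 (8.05, others 8.31 to 8.46), Esd in m-WS4 (10.65, others 10.30 to 10.38), Cyp2c50 in m-WS5 (8.60, others 7.66 to 8.00), Cyp2b10 in m-LF6 (7.93, others 5.77 to 6.28), Cyp2b13 in m-LF5 (8.77, others 8.02 to 8.30) and Cyp2b13 in m-WS6 (7.11, others 7.64 to 7.92).

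The diet change differed between the sexes in limma for 2 named genes at the threshold of 0.01, neither of them a member. The male change minus the female change was 0.36 for Gsto1 (adjusted p = 0.377) and 1.25 for Cyp2b10 (adjusted p = 0.386).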

How the results depend on the processing

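The counts of called members (5 comparisons, each 0) stayed 0 in 82 of 85 values under the alternatives other than leaving out 1 pup or 1 array number. These alternatives include fits of 1 prefix, of only the groups compared, and without m-LF6 and m-WS1. With 1 pup or 1 array number left out, the counts stayed 0 in 159 of 165 values. The exceptions of the first kind were 2 members differing between the sexes on WSD within prefix G074, 1 member (Gstm1) with a diet change that differed between the sexes without m-LF6 and m-WS1, and 1 (Gstm1) differing between the sexes on LFD by the exact permutation test. Leaving out 1 pup or number moved the male count between 0 and 1, the female count between 0 and 2 and the difference between 0 and 1, and left both counts between the sexes at 0. The share of all genes called is not given here for fits of 1 prefix or without 1 pup or number. The rising pathway genes in males (8) were 6 with the array number as a random block (Gsto1 and Cyp3a13 lost) and 10 without m-LF6 and m-WS1 (Gpx4, Hagh and Nat8f1 added, Cyp3a13 lost). Those in females (5) were 7 without the IQR filter (Gclm, counted in a pair of lists). The falling pathway genes in females were 2 instead of 1 without the IQR filter (Gstm7 added) and without m-LF6 and m-WS1 (Glrx added). Leaving out 1 pup or number turned the sign of 25 of 594 member changes.

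Signs also turned as follows (log2 changes, the causes not tested). With arrays centred on their medians the values were Gsta3 -0.00803 in males, Keap1 -0.000368 and Nr1i2 -0.00814 in females. With quantile normalization repeated they were Keap1 -0.00415 and Nr1i2 -0.00776 in females. In males the value was Glrx5 -0.0162 with array weights and Glrx5 -0.00724 with arrays of the same number and group averaged. Within prefix G073, the values were Gsta3 -0.0298, Gstp1 -0.0082, Glrx3 -0.156 and Nr1i2 0.0452 in males, and Gstt1 0.0239 and Gstt3 0.0346 in females. Within prefix G074, they were Gstt3 0.0628, Cyp2c29 -0.149 and Keap1 -0.0269 in males, and Gstm3 -0.000708, Gstp1 0.0428, Cyp2b10 -0.279, Keap1 -0.0147 and Nr1i2 -0.0309 in females. When 1 pup or number was left out, the male values ran for Gsta3 from -0.0116 to 0.0309, Gstm1 from -0.0559 to 0.161, Gstm3 from -0.236 to 0.0273, Gstt3 from -0.287 to 0.0787, Glrx3 from -0.145 to 0.223, Glrx5 from -0.0936 to 0.085, Cyp2c29 from -0.0322 to 0.149, Nqo1 from -0.00289 to 0.173 and Nr1i2 from -0.109 to 0.0126, and the female values for Gstm2 from -0.191 to 0.0276, Gstm3 from -0.0363 to 0.145, Gstm4 from -0.0733 to 0.0492, Gstp1 from -0.0948 to 0.0451, Gstt3 from -0.449 to 0.0411, Oplah from -0.169 to 0.077, Keap1 from -0.0342 to 0.0784 and Nr1i2 from -0.0292 to 0.052.

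The replicate block left all 5 member counts at 0 (Gstm4 in males -0.20). With it, Gclc in males and Esd and Gclm in females no longer passed the threshold, while Glrx, Cyp2c50 and Cyp2c54 in females passed it. The replicate numbers share no origin in the labels, and deviations of same-numbered pups correlated above 0.1 in 3 of 12 pairs. With the array-name number as a random block, 3.9% of genes were called in males and 3.52% in females, no member among them, and Gsto1 in males no longer passed. The exact test of the difference between the sexes was not run. Pups of 1 litter, if any, could not be blocked.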
